A study of Mus musculus with 12 samples.

Results

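The genes described here are 10 germline genes that somatic cells normally keep silent: Tex19.1, Dazl, Ddx4, Sycp1, Sycp3, Stag3, Mael, Tdrd1, Piwil2 and Asz1. They were taken as a fixed list of symbols, and every probe set annotated to exactly 1 of these symbols was used with no filter on its level. That gave 12 probe sets for 10 genes, out of 45037 probe sets and 18193 singly annotated genes on the array. Expression was measured on Affymetrix mouse arrays with total RNA from MEL cells, mouse erythroleukemia cells that begin to form hemoglobin and mature when dimethyl sulfoxide (DMSO) is added. The groups were 3 arrays labelled G9a knockdown and 3 arrays labelled wild type, and the protocol text common to both groups gives 2% DMSO for 4 days and 5 µg/ml of doxycycline as the inducer of the knockdown. The labels do not say which construct carried the knockdown, whether it was 1 clone, whether wild type cells also received doxycycline, or whether each array stands for a culture of its own. The p-values below therefore rest on the variation among these arrays alone, part of which may be technical. The precision of every value is limited by 3 arrays a group.

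G9a, encoded by Ehmt2, methylates lysine 9 of histone H3 together with its partner GLP, and this mark is associated with repressed genes. Many germline genes have CpG-rich promoters that are kept off in somatic cells by DNA methylation and by a repressor complex, PRC1.6, whose DNA-binding subunits include E2F6 and the MGA-MAX pair, and in mouse embryonic stem cells G9a and GLP are known to work with that complex. The question put to these arrays was whether any of the genes rose from background when G9a was depleted.

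The knockdown itself was visible on every array. Ehmt2 at probe set 1426888_at had GCRMA values of 4.29, 4.28 and 4.16 in the knockdown arrays, against 7.43, 7.07 and 6.82 in the wild type arrays. GCRMA values are on a log2 scale, and the groups did not overlap. The difference, knockdown minus wild type, was −2.86 (95% interval −3.26 to −2.47, limma adjusted p = 0.0197 over all probe sets). At the brighter Ehmt2 probe set, 1460692_at, the values were 6.67, 7.33 and 7.58 in the knockdown and 9.92, 10.03 and 10.23 in wild type, a difference of −2.87 (limma adjusted p = 0.125). MAS5, the second deposited summary of the same arrays, gave log2 differences of −2.71 and −2.46 at these probe sets, with limma adjusted p of 0.326 and 0.00265. The call at 1426888_at ended when knockdown array 2, wild type array 2 or wild type array 3 was left out (limma adjusted p 0.0577, 0.0813 and 0.087), with differences of −3.01 to −2.70 over all 6 omissions.

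The cells matched their label. Of 9 erythroid markers 8 had a probe set with 1 gene, and all 8 read above log2 4 on all 6 arrays, with Gata1, Klf1 and Alas2 among them. Sertoli and Leydig cell markers, represented by 2 genes, read at most 1.89 in the knockdown and 1.90 in wild type, and all 4 fibroblast or endothelial markers read below log2 3. Of the myeloid markers, Spi1 and Csf1r were above log2 4, as was Ighm among the lymphoid markers.

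No rise from background in the knockdown was seen for the 10 genes. The counts of 0 given here lie near the shares over all probe sets, so they say little about these genes in particular. Of the 12 probe sets, 11 read at or below log2 4 on all 6 arrays, a level used here as the limit of background, as did 60.3% of all probe sets. The 12th, for Tex19.1, was above it on all 6 arrays, as were 36.4% of all probe sets. Being above it in wild type, the Tex19.1 probe set could not cross out of background by the rule that follows. A probe set that was at or below log2 4 in every wild type array and above it in every knockdown array would have crossed out of background. No germline probe set did so, against 2 of all 45037 (0.00444%), one of them annotated to Map3k3 and the other to no gene, both singled out after their values were seen. By limma, 0 of the 12 probe sets passed an adjusted p of 0.05 in either summary, where 0.00222% of all probe sets did in each. At an unadjusted p under 0.05 there was 1 of the 12 in GCRMA, Tex19.1, against 2.76% of all probe sets, and 0 in MAS5, against 5.35%. With the replicate number as a block, 0 of the 12 passed the adjusted threshold in GCRMA, against 1.13% of all, and 0 in MAS5, against 0.0488%. Array weights also gave 0, against 7.97% of all, a share to be read with caution because the weights did not reach limma's convergence tolerance and because, with the filter, 2 of 17028 probe sets passed. No germline probe set had GCRMA groups that did not overlap, against 1.99% of all with the knockdown higher and 4.3% with the knockdown lower.

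**Figure D1:**
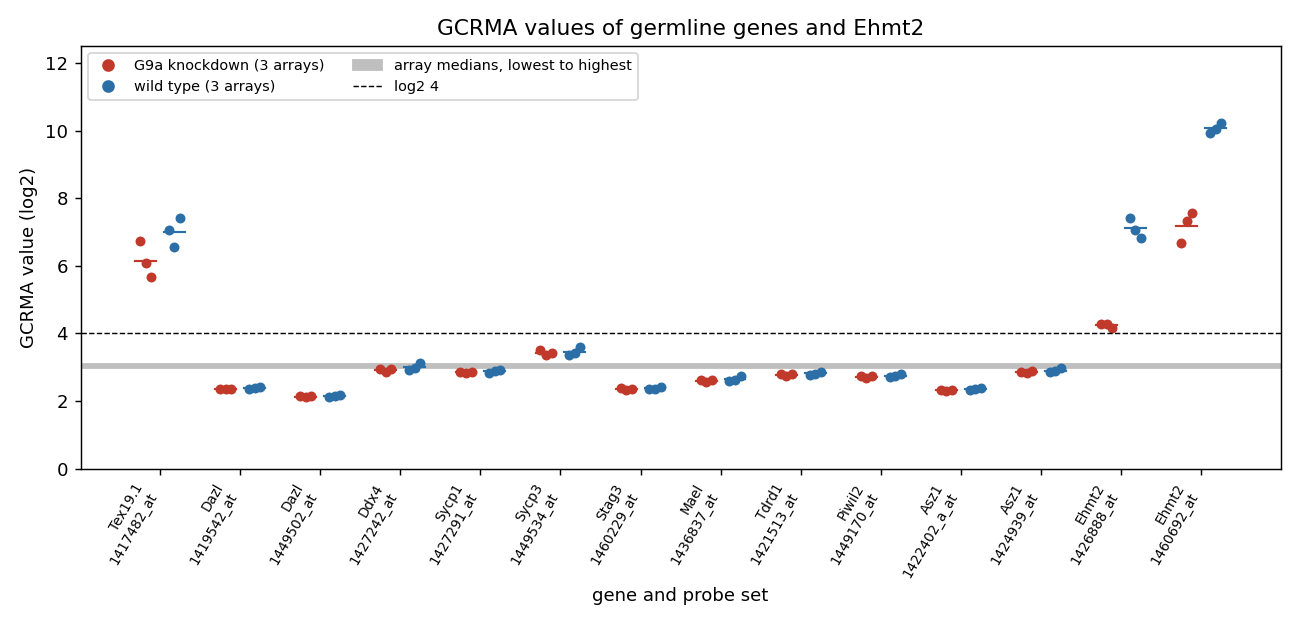
GCRMA values (log2) of the 12 germline probe sets and the 2 Ehmt2 probe sets, with a point for each array, a bar for each group mean, knockdown to the left of wild type, a grey band for the array medians and a dashed line at log2 4. Tex19.1 lies between 5.66 and 7.42, and the other 11 germline probe sets lie between 2.11 and 3.60 in both groups.

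Tex19.1 was the germline gene with a signal. It encodes a mammalian protein of germ cells, pluripotent cells and placenta that helps to restrain retrotransposons. Its probe set 1417482_at read 6.72, 6.07 and 5.66 in the knockdown arrays, against 7.06, 6.56 and 7.42 in the wild type arrays. Knockdown array 1 lay above wild type array 2, so the groups overlapped, while each knockdown array lay below the wild type array of the same number. The means were 6.15 ± 0.54 in the knockdown and 7.01 ± 0.43 in wild type (SD, n = 3 each), or 1.82-fold lower in the knockdown. The difference was −0.86 (95% interval −1.61 to −0.12), and it did not pass the threshold (limma unadjusted p = 0.0291, adjusted p = 0.729; two-sided exact permutation p = 0.20). With blocking on the replicate number, the limma adjusted p was 0.0702. Array weights gave a difference of −0.26 over all probe sets, in a fit whose weights did not reach limma's convergence tolerance, and −0.80 with the filter at log2 4, an alternative chosen after seeing the data. In MAS5 it read 447, 348 and 248 in the knockdown and 390, 390 and 564 in wild type, a log2 difference of −0.38 (−0.93 to 0.16, limma adjusted p = 0.963). The highest knockdown intensity exceeded the wild type intensities of arrays 1 and 2. Tex19.1 lay at the 68.3rd to 77.0th percentile of its array, so wild type MEL cells already had signal at this probe set.

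The other 9 genes read near the bottom of the GCRMA scale in both groups. By rank their probe sets lay at the 10.5th to 59.0th percentile of their arrays, with Sycp3 at the 57.0th to 59.0th. Among genes of chromosome pairing in meiosis, Sycp1, which encodes the transverse filament of the synaptonemal complex, read 2.87, 2.83 and 2.87 in the knockdown and 2.85, 2.89 and 2.91 in wild type at 1427291_at. Sycp3, a component of the chromosome axes, read 3.52, 3.36 and 3.42 in the knockdown and 3.37, 3.43 and 3.60 in wild type at 1449534_at. Stag3, a cohesin subunit specific to meiosis, read 2.39, 2.33 and 2.37 in the knockdown and 2.35, 2.37 and 2.42 in wild type at 1460229_at. In each of these the highest value came from wild type array 3 and the groups overlapped. The differences were −0.025 for Sycp1, −0.029 for Sycp3 and −0.015 for Stag3, with upper 95% limits of 0.062, 0.16 and 0.050.

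The germ cell RNA-binding genes gave the same picture. Dazl, which encodes a regulator of translation needed for germ cell development, read 2.37, 2.34 and 2.37 in the knockdown and 2.35, 2.38 and 2.43 in wild type at 1419542_at. Its other probe set, 1449502_at, read 2.14, 2.11 and 2.15 in the knockdown and 2.13, 2.16 and 2.18 in wild type. Ddx4, the mouse vasa helicase of germ granules, read 2.95, 2.88 and 2.96 in the knockdown and 2.93, 2.97 and 3.12 in wild type at 1427242_at. Knockdown array 2 was the lowest of the 6 at all 3 probe sets. The differences were −0.025 and −0.020 for Dazl and −0.076 for Ddx4, with upper limits of 0.039, 0.029 and 0.062.

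Genes of the piRNA pathway, in which small RNAs guide the silencing of transposons in germ cells, were also at the bottom of the scale. Piwil2, the PIWI protein known as MILI, read 2.73, 2.70 and 2.74 in the knockdown and 2.72, 2.75 and 2.80 in wild type at 1449170_at. Tdrd1, a Tudor-domain partner of PIWI proteins, read 2.79, 2.74 and 2.80 in the knockdown and 2.78, 2.82 and 2.86 in wild type at 1421513_at. Mael, which acts in transposon silencing in the germline, read 2.61, 2.56 and 2.61 in the knockdown and 2.59, 2.62 and 2.75 in wild type at 1436837_at. All 3 had overlapping groups. Asz1, a germ granule protein that localises to mitochondria, read 2.33, 2.30 and 2.34 in the knockdown and 2.32, 2.34 and 2.40 in wild type at 1422402_a_at. At 1424939_at it read 2.87, 2.82 and 2.88 in the knockdown and 2.85, 2.89 and 2.98 in wild type. The 5 differences lay between −0.059 for Mael and −0.030 for Asz1 at 1422402_a_at, with upper limits of 0.034 to 0.056.

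Over the 11 probe sets at the bottom of the scale, differences ran from −0.076 to −0.015 and limma adjusted p from 0.729 to 0.852. The highest upper limit, 0.16 for Sycp3, corresponds to 1.12-fold on the GCRMA scale. These limits hold for the summarised values, not for the amount of RNA, since how far GCRMA values near the bottom of the scale follow a small amount of transcript was not tested. In bulk RNA, expression in a few cells and low expression in all cells cannot be told apart.

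**Figure D2:**
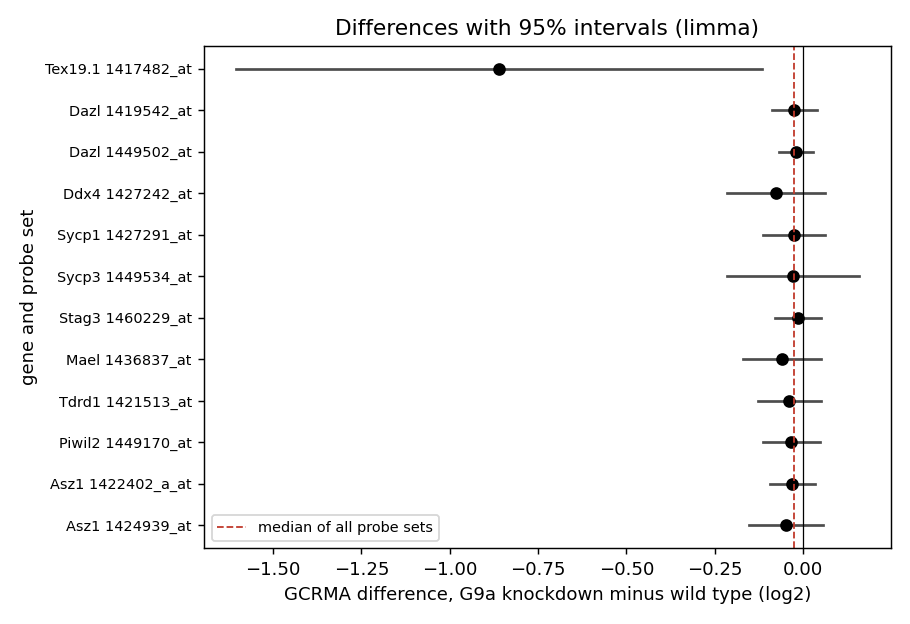
Differences in GCRMA value (log2, knockdown minus wild type) of the 12 germline probe sets, with points for the estimates, lines for the 95% intervals of the limma fit, a solid line at 0 and a dashed line at the median of all probe sets (−0.025). All 12 points lie below 0, and the intervals of 11 include it; that of Tex19.1 runs from −1.61 to −0.12.

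That all 12 differences were negative has to be read beside the whole array. Of all 45037 probe sets, 74.4% read lower in the knockdown by their means. The median difference was −0.030 over the 11 dim germline probe sets and −0.025 over all probe sets. Wild type array 3 had the highest value of the 6 at all 11 dim probe sets, and at 55.6% of all probe sets. Knockdown array 2 had the lowest at all 11, and at 52.1% of all probe sets. The 25th percentile of GCRMA values was highest and lowest in these same arrays. It read 2.407, 2.382 and 2.412 in the knockdown arrays and 2.390, 2.419 and 2.464 in the wild type arrays. After each array's median was subtracted, differences of the 11 ran from −0.042 to 0.019 and 7 of them were positive, a check chosen after seeing the data. Subtracting the medians adds the same amount to every difference, so a negative difference smaller than that amount had to change sign. The count shows only how small those 7 differences were. The part of the arrays' levels in the differences was not tested.

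**Figure D3:**
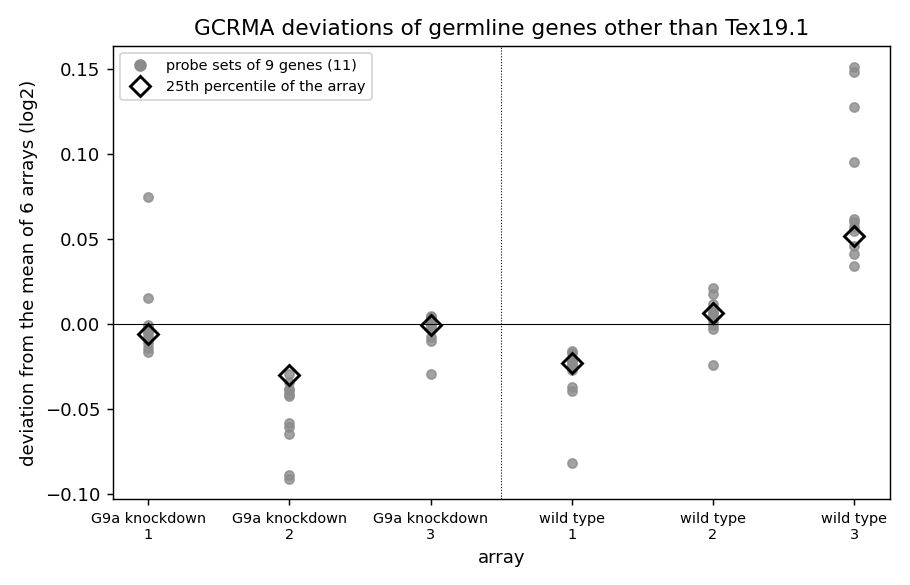
Deviation of each GCRMA value (log2) from its mean over the 6 arrays, for the 11 probe sets of the 9 germline genes other than Tex19.1 (grey points) and for the 25th percentile of all probe sets (open diamonds). Wild type array 3 holds the highest point of every probe set and knockdown array 2 the lowest, and the 25th percentile is also highest and lowest there.

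MAS5 intensities, which are linear and were scaled to a common mean on each array, showed a much wider spread for the same probe sets. Over the 6 arrays the highest intensity of a dim germline probe set was between 2.89 and 42.0 times its lowest. Of the 66 intensities of the 11 probe sets, 5 exceeded the median of their array, 4 of them from Asz1 at 1422402_a_at and 1 from Sycp3. Asz1 at that probe set read 52.9, 77.3 and 39.2 in the knockdown and 64.7, 113 and 96.1 in wild type, so its 3 wild type intensities and that of knockdown array 2 were above the medians.

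Sycp3 was the one germline gene whose groups did not overlap in MAS5. It read 63.0, 37.6 and 31.4 in the knockdown arrays and 28.6, 2.11 and 28.6 in the wild type arrays, which on the log2 scale differed by 1.62 (95% interval −0.54 to 3.78) and gave a limma adjusted p of 0.958. Its two-sided exact permutation p was 0.10, the lowest that 3 against 3 arrays allow. The 3 knockdown intensities were above the 3 in wild type, by a margin that was small between knockdown array 3 and wild type arrays 1 and 3. This is 1 of the 12 probe sets, beside 5.93% of all probe sets, and 0 of the 12 had every knockdown array below every wild type array in MAS5, beside 4.88% of all. In GCRMA its groups overlapped, as above, and the difference had the opposite sign. Without wild type array 2 the MAS5 difference was 0.54.

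Elsewhere MAS5 gave no direction shared by the dim genes. Of the 11 probe sets 4 had a positive MAS5 difference and 7 a negative one, from −0.83 for Asz1 at 1424939_at to 1.62 for Sycp3, and limma adjusted p ran from 0.958 to 0.999. Stag3 read 9.11, 22.2 and 44.7 in the knockdown and 15.6, 9.21 and 7.35 in wild type, a difference of 0.97 (−0.96 to 2.90). Dazl at 1419542_at read 1.52, 34.9 and 1.22 in the knockdown and 1.47, 9.69 and 1.65 in wild type, so that single arrays set its mean. Its other probe set read 55.9, 25.7 and 17.9 in the knockdown and 32.4, 62.4 and 60.6 in wild type, with a difference of the opposite sign (0.51 at 1419542_at and −0.73 at 1449502_at). Ddx4 read 1.48, 1.11 and 35.9 in the knockdown and 17.2, 0.86 and 21.8 in wild type. Ddx4 and Dazl at 1419542_at each ranged over more than 10-fold among the knockdown arrays, and Piwil2 ranged from 4.60 to 67.3 there. Ranges among the wild type arrays were also wide, at 0.86 to 21.8 for Ddx4, 2.11 to 28.6 for Sycp3 and 1.36 to 16.4 for Mael.

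The remaining dim genes overlapped in MAS5 as well. Sycp1 read 21.1, 13.5 and 37.6 in the knockdown and 22.5, 48.2 and 43.7 in wild type. Mael read 4.84, 2.24 and 1.08 in the knockdown and 1.36, 1.38 and 16.4 in wild type, and Tdrd1 read 5.21, 2.74 and 7.70 in the knockdown and 3.15, 7.95 and 4.00 in wild type. Both lay below the median of every array. Piwil2 read 49.0, 67.3 and 4.60 in the knockdown and 35.0, 46.8 and 21.5 in wild type, and Asz1 at 1424939_at read 37.4, 6.78 and 56.5 in the knockdown and 39.9, 45.2 and 49.7 in wild type. A knockdown array held the lowest value of the 6 at both.

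**Figure D4:**
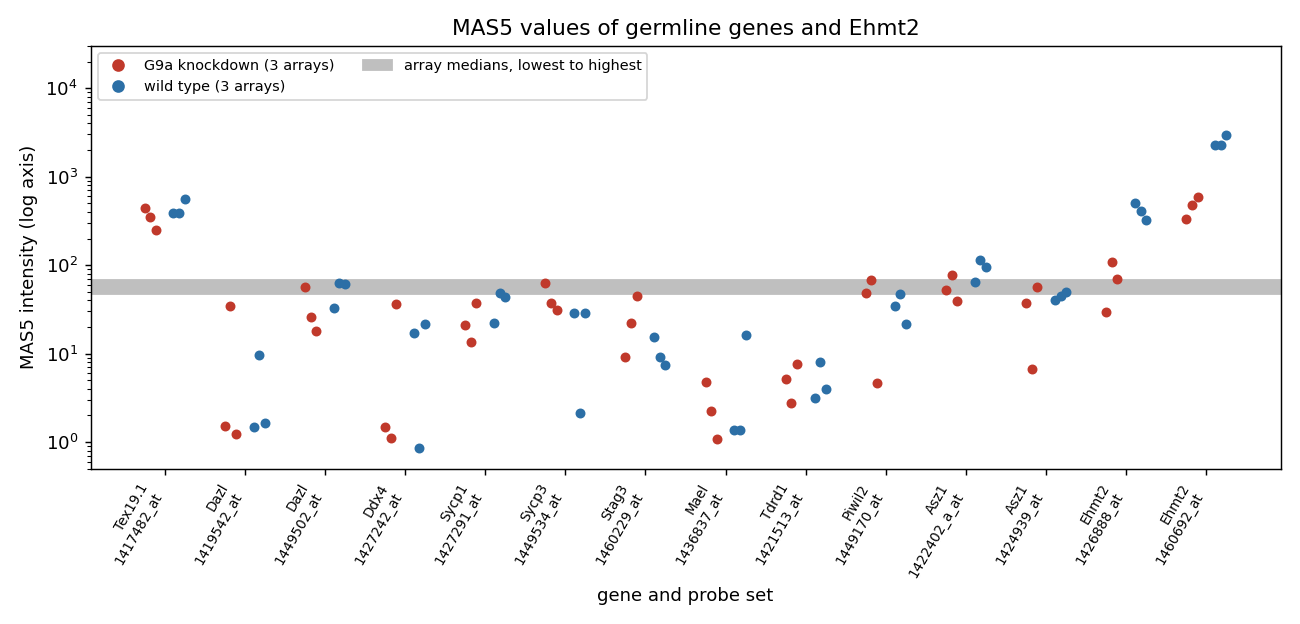
MAS5 intensities on a log axis of the 12 germline probe sets and the 2 Ehmt2 probe sets, with a point for each array, knockdown to the left of wild type, and a grey band for the array medians (47.7 to 68.3). Tex19.1 lies between 248 and 564, and among the other germline probe sets Sycp3 is the one with its 3 knockdown points above its 3 wild type points.

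Promoter sequence is shown for the gene with a signal, Tex19.1, and for 4 of the genes without one, Sycp1, Sycp3, Mael and Dazl. The windows are the 250 bases before the annotated start in RefSeq on GRCm38.p6, and they lie at chr11:121145893-121146142 on the plus strand, chr3:102936101-102936350 on the minus strand, chr10:88459337-88459586 on the plus strand, chr1:166238745-166238994 on the minus strand and chr17:50293621-50293870 on the minus strand. Capitals mark CACGTG, the E-box letters that MGA-MAX recognises, and GCGGGA on either strand (TCCCGC on the strand printed), letters found within many E2F sites.
Tex19.1: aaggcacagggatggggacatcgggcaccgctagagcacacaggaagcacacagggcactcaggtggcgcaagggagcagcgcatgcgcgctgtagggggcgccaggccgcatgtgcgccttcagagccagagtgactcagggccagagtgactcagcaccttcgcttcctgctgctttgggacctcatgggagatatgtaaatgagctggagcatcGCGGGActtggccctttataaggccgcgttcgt
Sycp1: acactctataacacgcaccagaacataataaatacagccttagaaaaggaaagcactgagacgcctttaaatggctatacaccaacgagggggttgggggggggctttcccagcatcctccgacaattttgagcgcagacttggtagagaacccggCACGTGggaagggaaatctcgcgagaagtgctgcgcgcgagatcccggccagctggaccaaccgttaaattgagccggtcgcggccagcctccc
Sycp3: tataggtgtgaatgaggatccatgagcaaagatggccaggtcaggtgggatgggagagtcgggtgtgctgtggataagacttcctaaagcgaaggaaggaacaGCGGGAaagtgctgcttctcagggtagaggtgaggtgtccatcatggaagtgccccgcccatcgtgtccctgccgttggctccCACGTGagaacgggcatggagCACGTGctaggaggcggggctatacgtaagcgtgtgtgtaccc
Mael: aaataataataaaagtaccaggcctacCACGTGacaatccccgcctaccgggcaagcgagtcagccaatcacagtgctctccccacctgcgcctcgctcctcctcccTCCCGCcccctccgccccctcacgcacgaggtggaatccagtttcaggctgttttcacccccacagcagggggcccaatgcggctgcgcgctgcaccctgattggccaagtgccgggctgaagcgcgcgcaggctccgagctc
Dazl: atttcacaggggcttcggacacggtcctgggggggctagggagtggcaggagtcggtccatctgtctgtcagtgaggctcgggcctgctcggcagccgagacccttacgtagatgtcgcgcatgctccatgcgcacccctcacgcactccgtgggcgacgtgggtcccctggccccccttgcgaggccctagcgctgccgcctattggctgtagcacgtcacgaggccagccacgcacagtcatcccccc

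RefSeq windows were found for 9 of the 10 genes, all but Piwil2. CACGTG occurred in the windows of 6 genes (Ddx4, Sycp1, Sycp3, Stag3, Mael and Tdrd1), and 2 times in that of Sycp3. Counted by window, since Tdrd1 has more than 1, it was in 7 of 11, against 6.02% of all 32851 windows. The window of Tex19.1 had none, nor did those of Dazl and Asz1. GCGGGA on either strand occurred in 4 genes (Tex19.1, Ddx4, Sycp3 and Mael), or 4 of the 11 windows, against 16.9% of all windows. Both motifs occurred in 3 genes, a count of genes beside 1.45% of all windows. The CG dinucleotide occurred 15 times in the Tex19.1 window, 12 times in that of Sycp3 and 20 times in that of Dazl. Over all windows the median was 6 and the 75th percentile 16, so Tex19.1 and Sycp3 lay below that percentile. Counts in the germline windows ran from 3 in 1 window of Tdrd1 to 31 in that of Ddx4. These matches describe letters only, and nothing in these arrays measured binding or methylation there.

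Other germline genes, from lists chosen with earlier results of these data known, were read in the same fit. Of 22 further genes of the synaptonemal complex and meiotic recombination (25 probe sets), 0 passed the threshold in limma in either direction. Of all probe sets, 0.00222% did so. At or below log2 4 on all arrays lay 20 probe sets of the list, beside 60.3% of all. The median difference was −0.027 in GCRMA and 0.25 in MAS5, where 16 probe sets were positive and 9 negative. Over all probe sets the MAS5 median was 0.023, with 23671 positive and 21366 negative. By the rule of lowest p, Msh5, which stabilises meiotic crossovers, read 2.00 ± 0.011 in the knockdown and 2.04 ± 0.029 in wild type. The recombinase gene Dmc1 read 2.83 ± 0.031 in the knockdown and 2.91 ± 0.086 in wild type. Prdm9, which marks recombination sites, read 2.22 ± 0.038 in the knockdown and 2.26 ± 0.037 in wild type. Rec114, needed for meiotic DNA breaks, was well above background in both groups, at 10.87 ± 0.12 in the knockdown and 10.69 ± 0.087 in wild type (SD, n = 3 each). Its groups overlapped in GCRMA. In MAS5 it read 3222, 3078 and 3500 in the knockdown and 2762, 2658 and 2878 in wild type, without overlap. The log2 difference was 0.24 (limma adjusted p = 0.937), where 5.93% of all probe sets had every knockdown array above every wild type array. Syce2 and Mns1 were the other genes of this list above log2 4 on all arrays, named after their values were seen.

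Of 13 further piRNA pathway genes (19 probe sets), 0 passed in limma in either summary, beside 0.00222% of all probe sets in each. The median difference was −0.023 in GCRMA and 0.12 in MAS5, where 12 probe sets were positive and 7 negative. Here 9 probe sets of 5 genes were above log2 4 on all 6 arrays, beside 36.4% of all probe sets. The genes were Rnf17, Tdrd7, Gtsf1, Piwil4 and Tdrd9, named after their values were seen. Gtsf1, a small zinc finger protein that assists PIWI proteins, read 8.46, 7.53 and 7.75 in the knockdown and 7.91, 6.40 and 7.23 in wild type at 1452967_at. Each knockdown array exceeded the wild type array of the same number while the groups overlapped. The difference was 0.74 (95% interval −0.21 to 1.69, limma adjusted p = 0.729). With blocking on the replicate number, the limma adjusted p was 0.0302 at this probe set and 0.0476 at 1441836_x_at, where 1.13% of all probe sets passed. In MAS5 with the block the limma adjusted p was 0.633 and 0.667. Tdrd7, a Tudor-domain protein, read 8.91, 9.04 and 8.82 in the knockdown and 8.66, 8.73 and 8.53 in wild type, with groups that did not overlap and a limma adjusted p of 0.729, where 1.99% of all probe sets had every knockdown array above every wild type array. Rnf17 differed by −0.27 at 1425709_at and Exd1, a piRNA biogenesis factor at background, by −0.12.

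Of 22 further germ cell genes (28 probe sets), 0 passed in limma in either summary, beside 0.00222% of all probe sets in each. At or below log2 4 on all arrays lay 24 probe sets, beside 60.3% of all. The median difference was −0.024 in GCRMA and 0.28 in MAS5, where 17 probe sets were positive and 11 negative. Ddx25, a testis RNA helicase, read 5.90, 4.74 and 4.67 in the knockdown and 4.65, 3.81 and 4.69 in wild type in GCRMA, a difference of 0.72 (−0.16 to 1.6, limma adjusted p = 0.729). In MAS5 it read 363, 221 and 217 in the knockdown and 116, 52.3 and 66.5 in wild type, a log2 difference of 1.79 (0.95 to 2.64, limma adjusted p = 0.894). Its groups did not overlap in MAS5 and overlapped in GCRMA through wild type array 3. With the block its limma adjusted p was 0.0764 in GCRMA and 0.0791 in MAS5. Tfap2c, a germ cell transcription factor, differed by −0.12, Brdt, a testis bromodomain protein, by −0.038 at 1444667_at and Sohlh2 by −0.038. Brdt and Tex19.2 were the genes of this list above log2 4 on all arrays, named after their values were seen. Brdt read 6.69 ± 0.29 in the knockdown and 6.77 ± 0.60 in wild type at 1435502_a_at, and 6.65 ± 0.32 in the knockdown and 6.73 ± 0.36 in wild type at 1450178_at (SD, n = 3 each), with overlapping groups at both. Tex19.2, a paralog of Tex19.1 chosen here for that relation, read 9.04 ± 0.096 in the knockdown and 9.10 ± 0.26 in wild type. The array annotation separates the paralogs by probe set, and how far their probes share sequence was not tested.

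**Figure D5:**
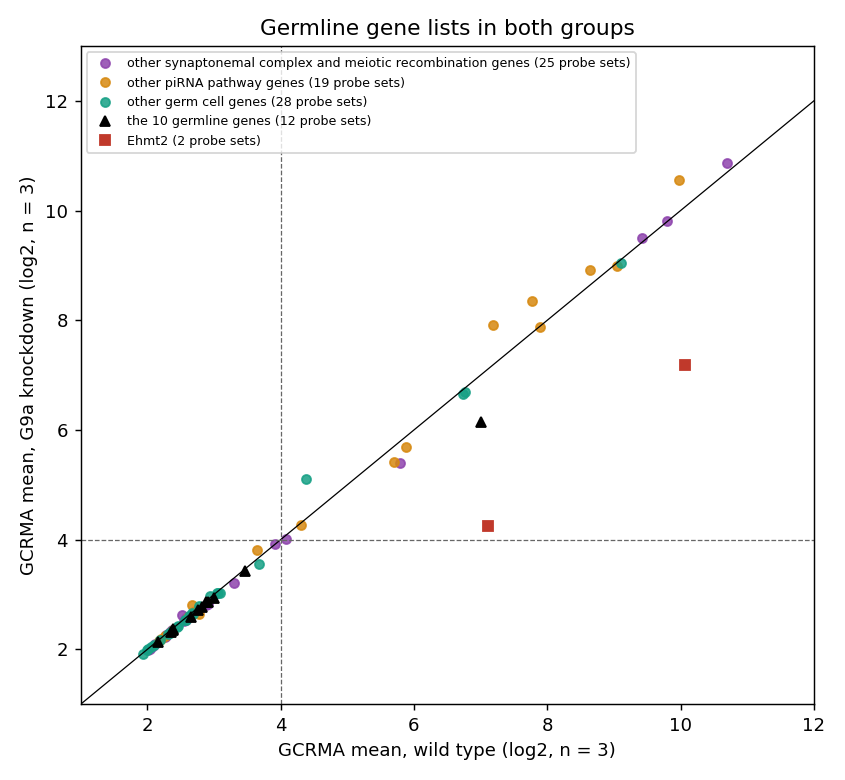
Mean GCRMA value (log2, n = 3) in the knockdown on the vertical axis and in wild type on the horizontal axis, for probe sets of the 10 germline genes, of 3 lists of further germline genes and of Ehmt2, with a solid line of equality and dashed lines at log2 4. Most germline probe sets lie near the line of equality below log2 4, while both Ehmt2 probe sets lie well below the line.

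Genes of the machinery that represses germline genes were largely present. Of 24 such genes, 23 had a probe set above log2 4 on all 6 arrays. Of their 71 probe sets 51 were above that level, beside 36.4% of all probe sets. The gene without one was Cbx3, which read 1.36 in the knockdown and 1.37 in wild type at 1432628_at. Ehmt2 was the one called in limma, at 1 of the 71 probe sets, beside 0.00222% of all. Hells, a helicase needed for DNA methylation, read 7.38 ± 0.34 in the knockdown and 8.11 ± 0.33 in wild type (SD, n = 3 each), a difference of −0.72 (limma adjusted p = 0.729, and 0.017 with the block, where 1.13% of all probe sets passed). With the block Uhrf1, which brings the maintenance DNA methyltransferase to DNA, also passed, with differences of −0.87 and −1.01 (limma adjusted p = 0.00434 and 0.00835). In MAS5 with the block neither gene passed (limma adjusted p = 0.423 for Hells, 0.143 and 0.701 for Uhrf1). The demethylase gene Kdm5c differed by 0.37 at 1435348_at and Cdyl, a reader of methylated lysine 9, by 0.34 at 1418071_s_at, neither passing. The probe sets of Kdm5c did not share a direction. At 1426497_at, also above log2 4 on all arrays, its difference was −0.22 (limma adjusted p = 0.729).

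A list of somatic relatives of the germline genes, which also held the cohesin genes Rad21, Smc1a and Smc3, was present in both groups. All 11 genes were above log2 4 on all arrays at 1 or more probe sets. Of their 34 probe sets 26 were above that level, beside 36.4% of all probe sets. In limma 0 were called, beside 0.00222% of all. Stag1, the somatic relative of Stag3, differed by 0.25 at 1421940_at, and the argonaute genes Ago4, Ago2 and Ago3 differed by 0.32, 0.18 and −0.061 at their probe sets of lowest p. As a description of background, 25 genes of liver, pancreas, muscle, brain and other tissues were read in the same way. Of their 51 probe sets, 47 lay at or below log2 4 on all arrays, beside 60.3% of all probe sets. In GCRMA 80.4% had a negative difference, beside 74.4% of all, and the median difference was −0.022. In MAS5 the median difference was 0.15, with 30 positive and 21 negative. The liver gene Alb read 2.76 ± 0.073 in the knockdown and 3.02 ± 0.23 in wild type. The pituitary gene Gh read 3.34 ± 0.27 in the knockdown and 3.13 ± 0.082 in wild type. Apoa1, another liver gene, differed by −0.054 and the myelin gene Mbp at 1451961_a_at by 0.24. Mbp is not a gene at background throughout. Mbp and Gfap had the 4 probe sets of this list above log2 4 on all arrays, named after their values were seen. At 1425264_s_at Mbp read 8.62 ± 0.22 in the knockdown and 8.56 ± 0.16 in wild type.

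The genes whose GCRMA profile over the 6 arrays was most like that of Tex19.1 were Apc, Prpf31 and Ecm1, with Pearson correlations of 0.987, 0.987 and 0.986. The correlations are a description over 6 arrays shared by all genes, chosen as the highest of 15580 candidate probe sets, of which 111 exceeded 0.9. Ecm1 read 7.76, 6.91 and 6.65 in the knockdown and 8.32, 7.77 and 8.51 in wild type.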

How the data were processed

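RNA from 6 hybridizations, 3 per group, was summarised in 2 ways, and the 12 deposited columns are those 6 arrays, never counted as further replicates. Per the labels, the authors made the MAS5 columns, which hold intensity on a linear scale with a 2% trimmed mean of 500.0 on every array, and the GCRMA columns, deposited as log2 values. Software versions: not given in the sources used here. Probe sets were named from the platform annotation. Of the non-control probe sets, 34945 had 1 gene symbol, 932 several and 9160 none, and none with several named a germline gene of the list. All 10 symbols were in a RefSeq gene table of GRCm38.p6.

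The 64 control probe sets were left out, and no filter on level was applied to the other 45037. Groups were compared with limma 3.58.1 in R 4.3.3 (lmFit, eBayes with an intensity trend, no term but group, Benjamini-Hochberg adjustment over all probe sets, threshold 0.05), on GCRMA and on log2(MAS5 + 1). MAS5 differences are on that scale, which understates changes of low values. Alternatives covered the summary, the pseudocount, a filter at log2 4 in at least 3 arrays, no trend, array weights, left-out arrays and the replicate number as a block. Arrays of the same number deviated together from their group means (correlations of 0.65, 0.52 and 0.33 over all probe sets). This pairing entered only the alternatives with the replicate number as a block. The main fit, its p-values and intervals, and the permutation p-values ignore it. The labels leave the meaning of a number open, and the pairing is taken from the data.

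The germline genes, lists and tests were chosen with earlier results of these data known. Named genes were every probe set of the 10 genes and of Ehmt2, up to 4 genes a list by lowest p, and the 3 profiles most like the brightest germline probe set. The fit was tested on simulated data with independent noise on each array. Those data lack the deviations shared by arrays of the same number, so they do not show how the fit behaves under them.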

Additional observations from a re-analysis of the deposited data

How the results depend on the processing

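Over the 14 GCRMA and 8 MAS5 alternatives, 0 of 243 values of the 12 germline probe sets passed in limma (lowest adjusted p 0.0702), and 218 kept their direction. Calls over all probe sets under these alternatives ran from 0 to 3591 and are given in the next paragraph. With log2 5 as background the counts of germline probe sets above it and crossing it were 1 and 0, as at log2 4. Direction at the bottom of the scale did depend on the processing, and the cause was not tested. In MAS5 the differences were 0.51 for Dazl at 1419542_at, 1.62 for Sycp3, 0.97 for Stag3 and 0.042 for Tdrd1, against negative values in GCRMA. With array medians subtracted they were 0.0098 and 0.014 for Dazl, 0.0091 for Sycp1, 0.0058 for Sycp3, 0.019 for Stag3, 0.0014 for Piwil2 and 0.0039 for Asz1 at 1422402_a_at, and with array weights 0.046 for Sycp3 and 0.0049 for Stag3. Leaving out 1 array each gave −0.077 to 0.038 for Sycp3 and −0.030 to 0.0041 for Stag3 in GCRMA, with positive values without wild type array 3 or knockdown array 2. In MAS5 it gave −0.80 to 1.21 for Dazl at 1419542_at, −2.0 to 0.060 for Ddx4, −0.92 to 0.52 for Mael, −0.24 to 0.37 for Tdrd1, −1.02 to 0.79 for Piwil2 and −1.40 to 0.039 for Asz1 at 1424939_at.

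The count of calls over all probe sets, 1 in limma, was 0 without the trend (1674 at an unadjusted p under 0.05), 511 with the replicate number as a block, 3591 with array weights (which did not reach limma's convergence tolerance), 42 without both replicate 1 arrays and 0 to 4 without 1 array. Of alternatives chosen after seeing the data, it was 0 with array medians subtracted (1099 at an unadjusted p under 0.05), 8 with the block and the filter, and 2 with array weights and the filter. In MAS5 the count of 1 was 22 with the block. Ehmt2 at 1426888_at lost its call in MAS5 (−2.71), without the trend (−2.86) and with array medians subtracted (−2.83), with −3.01 to −2.70 over left-out arrays. Ehmt2 at 1460692_at gained a call in MAS5 (−2.46), with the block (−2.87), with array weights (−3.0), without both replicate 1 arrays (−2.68), and with the filter together with the block (−2.87) or array weights (−2.85), with −3.06 to −2.61 over left-out arrays, where it passed without knockdown array 1 or knockdown array 3 (limma adjusted p 0.0257 and 0.0414). With the block no germline call of the 12 changed.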
